A study of Mus musculus with 8 samples.

Results

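Cells of the endothelial-to-hematopoietic transition (EHT) were compared with erythro-myeloid progenitors (EMP) in the aorta-gonad-mesonephros (AGM) region of wild-type (WT) mouse embryos. The members were the cells that the deposited annotation names EHT or EMP and gives the genotype WT. There were 326 EHT and 390 EMP cells, or 716 of the 15168 cells of the series, of which 8423 were WT. By WT library 1 to 5 the EHT cells numbered 64, 45, 31, 68 and 118, and the EMP cells 59, 79, 38, 103 and 111. Each library was a pool of 2 to 5 C57BL/6 embryos at embryonic day 10.5, dissected for the AGM and sorted for CD31 (Pecam1). By CITE-seq each WT library gave RNA counts, and all but WT 4 gave antibody tag counts, with the CD44 tag in WT 5 alone. CITE-seq reads messenger RNA and DNA-barcoded antibodies in the same cell, and a unique molecular identifier (UMI) counts each RNA molecule once. The 3 libraries named Meis1-knockout, used below for 1 comparison, came from embryos with floxed Meis1 alleles and Cre driven by the VE-cadherin (Cdh5) promoter, which is active in endothelium, so that blood cells of endothelial descent inherit the deletion. Cluster names rest on the RNA that is compared here, so the p-values on RNA measure how steadily the named populations separated over 5 pools, and they do not test whether the populations exist. The antibody tags took no part in the naming.

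EHT is the step in which hemogenic endothelial cells of the aortic wall round up, switch on blood genes and bud into clusters that include precursors of hematopoietic stem cells. EMPs arise earlier, mostly from yolk sac hemogenic endothelium, and give erythroid, megakaryocytic, mast cell and granulocyte-monocyte descendants that circulate through the embryo. Both populations carry Kit, and both depend on Runx1, the transcription factor that drives the emergence of blood from endothelium. The comparison asks which genes differ between the named populations in cells of the same embryos. Origin and stage of differentiation differ together between them and cannot be told apart here. The paper also allows that a few of the mature blood cells, a group in which it counts EMPs, may come from EHT.

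Total UMIs in the summed sets ranged from 1196374 to 2557665 for EHT and from 2064999 to 5637244 for EMP. Median UMIs per cell were lower in EHT than in EMP in 5 of 5 WT libraries, at 28944, 34875, 39461, 31902 and 13526 against 47527, 52654, 52536, 53132 and 21434. EMP cells therefore held 1.55 times as many UMIs on average (range 1.33 to 1.67 over libraries, exact sign-flip permutation test, two-sided, p = 0.0625, the smallest that 5 libraries allow). Genes detected per cell were also lower in EHT in 5 of 5, by a mean of 0.16 on the log2 scale. Of the 10 EHT markers used to check the names, 6 were higher in EHT and 0 lower, and of the 10 EMP markers 9 were lower in EHT and 1, Kit, higher. Detection alone did not separate the populations, since the 10 EHT markers were above 0 in every library of both and 9 of the 10 EMP markers in every library of EHT. Scrublet called 10 of the EHT and 5 of the EMP cells doublets, and 3 of the 716 cells carried a barcode found in another library.

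Promoters of 3 genes higher in EHT and 3 genes higher in EMP are shown first, since the results below turn on these genes. They are Hlf, a stem cell transcription factor, Hoxa9, a homeobox factor of the posterior trunk and of stem cells, and Mycn, a growth factor-responsive transcription factor. Against them stand Gata1, the master factor of erythroid and mast cell genes, Cpa3, a protease of mast cell granules, and Mpo, the myeloperoxidase of neutrophil granules. The RefSeq windows (GRCm38.p6) run from 250 bases before to 50 after the annotated start and are written 5′ to 3′ on the strand of the gene. Capitals mark AGATAA (factors such as Gata1), TGTGGT (RUNX factors), TGACAG (TALE homeodomain factors such as Meis1), CACGTG (the E-box of Myc), TATAAA (a core promoter element) or CCGGAA (ETS factors), each searched on both strands.
Hlf, chr11:90390868-90391167, minus strand: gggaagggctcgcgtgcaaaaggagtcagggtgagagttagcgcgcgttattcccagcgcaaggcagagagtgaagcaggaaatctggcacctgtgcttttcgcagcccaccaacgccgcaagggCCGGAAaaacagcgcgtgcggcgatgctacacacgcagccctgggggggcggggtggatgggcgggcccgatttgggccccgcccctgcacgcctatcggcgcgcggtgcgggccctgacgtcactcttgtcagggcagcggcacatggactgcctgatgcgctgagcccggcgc
Hoxa9, chr6:52227321-52227620, minus strand: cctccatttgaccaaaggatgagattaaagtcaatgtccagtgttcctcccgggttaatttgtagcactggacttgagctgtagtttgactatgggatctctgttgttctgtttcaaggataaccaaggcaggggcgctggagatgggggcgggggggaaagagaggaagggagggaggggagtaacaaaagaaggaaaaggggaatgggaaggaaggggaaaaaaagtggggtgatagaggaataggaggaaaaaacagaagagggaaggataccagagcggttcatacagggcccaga
Mycn, chr12:12941787-12942086, minus strand: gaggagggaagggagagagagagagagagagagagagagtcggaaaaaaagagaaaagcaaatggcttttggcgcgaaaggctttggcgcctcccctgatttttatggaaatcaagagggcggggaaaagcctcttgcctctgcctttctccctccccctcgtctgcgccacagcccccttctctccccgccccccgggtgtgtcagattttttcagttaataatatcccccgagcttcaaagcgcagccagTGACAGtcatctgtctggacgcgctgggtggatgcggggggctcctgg
Gata1, chrX:7967861-7968160, minus strand: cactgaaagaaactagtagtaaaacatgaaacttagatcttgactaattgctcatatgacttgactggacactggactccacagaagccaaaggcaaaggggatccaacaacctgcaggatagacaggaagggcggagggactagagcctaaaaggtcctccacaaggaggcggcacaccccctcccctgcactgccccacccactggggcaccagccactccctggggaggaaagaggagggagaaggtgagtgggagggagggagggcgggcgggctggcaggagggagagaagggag
Cpa3, chr3:20242132-20242431, minus strand: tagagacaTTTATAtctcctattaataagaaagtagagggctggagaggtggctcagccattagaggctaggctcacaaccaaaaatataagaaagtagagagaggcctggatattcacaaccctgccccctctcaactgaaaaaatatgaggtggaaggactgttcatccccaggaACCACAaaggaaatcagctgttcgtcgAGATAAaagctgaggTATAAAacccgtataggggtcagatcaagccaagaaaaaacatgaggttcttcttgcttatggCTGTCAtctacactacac
Mpo, chr11:87793534-87793833, plus strand: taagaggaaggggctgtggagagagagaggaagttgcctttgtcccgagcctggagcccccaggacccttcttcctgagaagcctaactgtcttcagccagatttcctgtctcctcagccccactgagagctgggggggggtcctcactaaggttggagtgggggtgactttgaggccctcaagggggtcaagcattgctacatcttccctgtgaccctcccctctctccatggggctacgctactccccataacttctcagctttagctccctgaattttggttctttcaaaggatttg
In these windows Cpa3 held 5 matches, with AGATAA beginning 46 bases and TATAAA 31 bases before the start, while Hlf and Mycn held 1 each and the windows of Hoxa9, Gata1 and Mpo held none of the 6 words. No 2 matches overlapped.

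Over larger sets the letters were spread as follows. TGACAG stood in the windows of 18.2% of 669 genes at least 2-fold higher in EHT, 26.7% of 273 genes at least 2-fold lower and 18.9% of 7171 tested genes with a window. TGTGGT stood in 14.2%, 22.0% and 14.3% of the same sets, AGATAA in 8.97%, 11.7% and 7.45%, and CCGGAA in 15.4%, 22.7% and 35.6%. Of all 32851 windows, 19.2% held TGACAG, 16.8% TGTGGT, 11.2% AGATAA and 14.9% CCGGAA. The E-box CACGTG was found in 7.15% and TATAAA in 13.6% of all windows. A match is a stretch of letters and not a measured binding site.

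In RNA, EHT cells carried the endothelial, Hox, imprinted and stem cell genes at higher levels, and EMP cells most granule, mast cell and erythroid genes. Raw counts were summed per library and cell type and tested with edgeR's quasi-likelihood test with the library as a block, with Benjamini-Hochberg adjustment and a threshold of adjusted p under 0.1. Of 9252 genes tested, 5221 (56.4%) passed, 2663 (28.8%) higher and 2558 (27.6%) lower in EHT, and 4352 of the 5221 moved the same way in every library. With so wide a background, a share of list members passing is read against these percentages. A gene rare in either population could enter the test through the other alone, which fixed its direction. For lists of such genes the share is a description and not a test. The background narrows with size, since 878 genes (9.49%) passed and were at least 2-fold higher in EHT and 368 (3.98%) at least 2-fold lower, so the large differences lay mostly on the EHT side. The median log2 fold change over all tested genes was 0.008, and the median of its absolute value was 0.31. All levels below are normalised CPM (counts scaled by library size and TMM factor), means are given ± SD over 5 libraries, and fold changes are log2 of EHT over EMP ± SE.

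**Figure D1:**
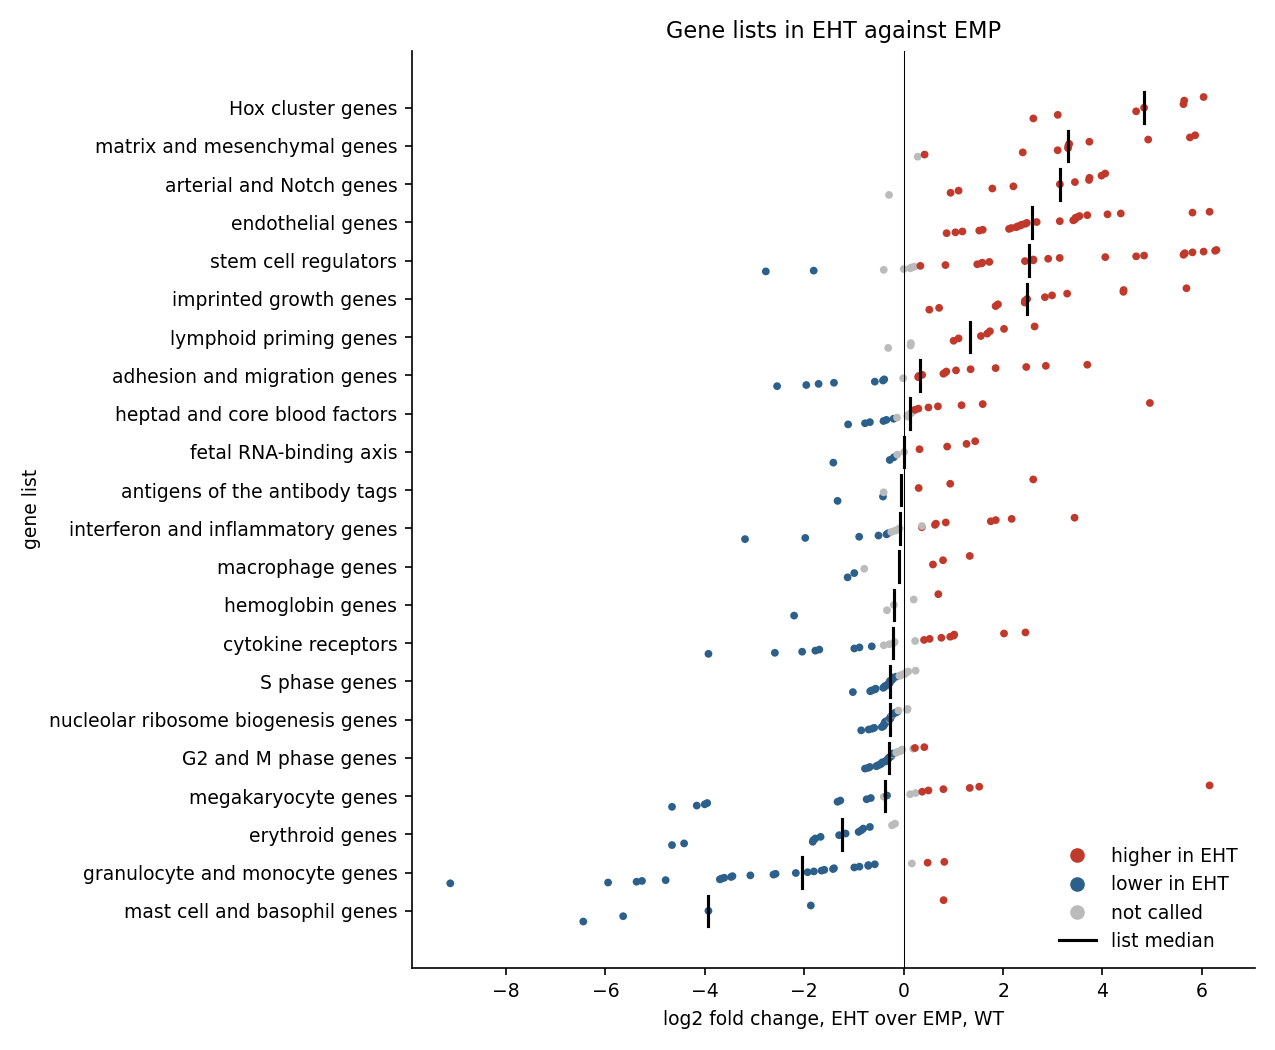
Log2 fold change of EHT over EMP in WT (horizontal axis) for every tested member of 22 gene lists (rows, ordered by the list median, black bar). Red points passed the test as higher in EHT, blue points as lower, and grey points did not pass; the Hox median lies at 4.84 and the mast cell and basophil median at -3.93.

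Several transcription factors of stem cells were among the genes that were higher in EHT. Hlf stood at 123, 89.9, 99.4, 74.1 and 102 CPM in EHT of WT 1 to 5 and at 1.33, 1.45, 0.516, 1.11 and 1.19 CPM in EMP. The lowest EHT library was far above the highest EMP library (log2 fold change 6.26 ± 0.16, adjusted p = 3.04e-12). Mecom (Evi1), a zinc finger factor needed for stem cell formation, stood at 40.8 to 68.2 CPM in EHT and 0 to 2.58 in EMP (5.66 ± 0.29). Nkx2-3, a homeobox factor, stood at 39.6 to 55.7 CPM against 0 to 1.33 (6.29 ± 0.27). Mycn was at 184, 170, 132, 167 and 114 CPM in EHT and at 13.9, 6.77, 9.29, 10.7 and 5.96 CPM in EMP (4.06 ± 0.12). Gfi1, the repressor that silences endothelial genes during EHT, was at 47.5, 56.5, 29.1, 61.0 and 33.0 CPM against 4.31, 1.45, 0.516, 0.739 and 0.794 (4.95 ± 0.27, or 5.68 without WT 1). Levels of these 5 factors did not overlap between the populations, which was true of 2599 (28.1%) of the tested genes.

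Of the 28 tested stem cell regulators, 21 were higher and 2 lower in EHT, against the background of 28.8% and 27.6%. Their median was 2.52. The list took 0.214% of UMIs in EHT and 0.0930% in EMP. It took 0.289% in the cells named preHE, 0.203% in megakaryocytes, 0.132% in arterial endothelium and 0.0689% in myeloid cells. Its level was therefore not particular to EHT. Procr (EPCR), a surface receptor used to sort stem cells, stood at 34.1 to 72.6 CPM in EHT and 0.332 to 1.66 in EMP (5.81 ± 0.21). Cd34, a sialomucin of progenitors and endothelium, stood at 427 ± 26.7 against 146 ± 34.0 CPM (1.58 ± 0.08). The 2 members that were lower were Zbtb16 (-2.77 ± 0.30), a zinc finger factor, and Ly6e (-1.81 ± 0.11), a surface protein of the Ly6 family, both named after their values were seen. Adgrg1 (Gpr56), an adhesion receptor of emerging clusters, did not pass, at 148 against 148 CPM on average (0.002 ± 0.11), and turned to -0.15 without WT 1 and -0.08 without WT 2.

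Hox cluster genes, which encode position along the body axis and expand stem cells, were higher in EHT in 7 of 7 tested members, with a median of 4.84, or 4.66 with the members of 3 or fewer counts at their lower bound. With no filter on low counts the median was 3.68. Members rare in EMP, such as Hoxa7, Hoxa10 and Hoxb5, could pass that filter only through EHT, which fixed their direction. The 7 of 7 is therefore a description and not a test. Hoxa9 stood at 121, 131, 108, 88.7 and 103 CPM in EHT and at 9.61, 4.84, 0, 2.58 and 0.794 CPM in EMP (4.84 ± 0.25, adjusted p = 1.29e-09). Hoxa7 stood at 41.9 to 61.1 CPM against 0.397 to 2.65 (5.63 ± 0.25, or 6.30 without WT 1). Hoxa10 had 98 counts in EHT and 2 in EMP over all libraries, a ratio of 93.7 in counts per UMI (95% exact interval 25.3 to 785), and Hoxb5 had 79 and 2, a ratio of 75.5 (20.2 to 635). Both EMP counts of Hoxb5 came from WT 4, without which it was at least 36.6-fold higher against the limit of 3 counts. Such intervals cover counting error only. The other 24 of the 31 Hox genes listed were too rare to be tested, 9 of the 31 being at 0 in EMP and 3 in EHT. Summed, the list took 0.0292% of UMIs in EHT, 0.00117% in EMP, 0.0343% in preHE and 0.0154% in arterial endothelium. In megakaryocytes it took 0.00590% and in myeloid cells 0.00238%.

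**Figure D2:**
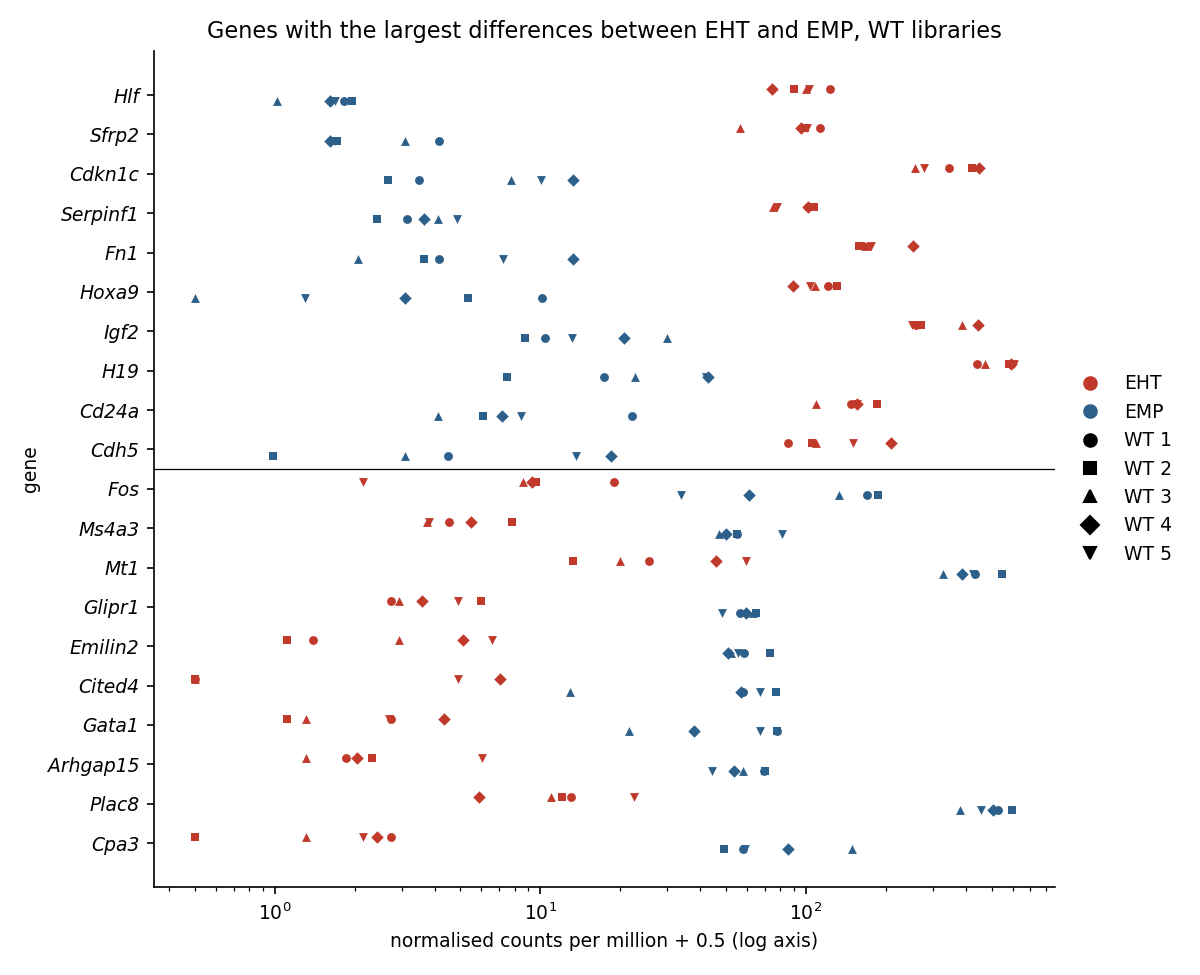
Normalised CPM plus 0.5 (log axis) of the 10 genes with the largest rise (above the line) and the 10 with the largest fall (below) in EHT against EMP, with 1 point per WT library and cell type. In each of the 20 genes all 5 EHT points lie to one side of all 5 EMP points, against 28.1% of all tested genes. The 20 were picked for size and for the same direction in every library, so their separation is not a test. Hlf lies between 74.1 and 123 in EHT and between 0.516 and 1.45 in EMP before 0.5 is added.

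Endothelial genes were higher in EHT in 26 of 26 tested members (median 2.58). Cdh5, the junction cadherin of endothelium, stood at 84.8, 104, 109, 209 and 150 CPM in EHT and at 3.98, 0.484, 2.58, 17.9 and 13.1 CPM in EMP (4.10 ± 0.24, adjusted p = 4.23e-09). WT 4 was the highest library in both populations. Vwf, the adhesive glycoprotein of endothelium and megakaryocytes, stood at 33.2 to 67.6 against 0 to 1.29 CPM (6.15 ± 0.29), and Esam, a junction molecule, at 84.1 to 116 against 2.18 to 16.3 CPM (3.69 ± 0.25, or 4.33 without WT 4). Sox17, an arterial factor of hemogenic endothelium, stood at 14.3, 7.29, 20.2, 23.0 and 20.4 CPM against 0.995, 0.726, 0.516, 9.42 and 3.18 (2.38 ± 0.35). Its ranges overlapped because EMP of WT 4 lay above EHT of WT 2. Of the 66 EMP counts of Sox17 over all libraries, 27 came from 1 cell. Pecam1, on which the cells were sorted, differed less, at 49.3 to 92.5 against 27.3 to 48.5 CPM (0.86 ± 0.13). The summed list took 0.205% ± 0.0459 of UMIs in EHT, 0.0391% ± 0.0149 in EMP and 0.849% ± 0.0593 in arterial endothelium (aEC), so EHT lay between EMP and endothelium.

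Leaving out WT 4 widened several of these endothelial differences by over 1.5 times, to 3.41 for Sox17, 6.32 for Clec14a (4.37 with it), 5.13 for Gja4 (3.74), 5.05 for Bmx (3.98), 4.80 for Hey1 (4.05) and 6.85 for Mecom. In EMP the summed endothelial list was also highest in WT 4, at 0.0613% of UMIs against a lowest of 0.0241%. Of the EMP counts over all libraries, 1 cell held 33 of 48 for Gja4 and 27 of 66 for Sox17. For Clec14a, Hey1, Bmx and Mecom the fullest cell held 6 of 28, 6 of 16, 3 of 7 and 2 of 19. The doublet caller marked 3 EHT and 2 EMP cells of WT 4, and leaving out the cells called doublets in all libraries gave 5.28 for Gja4, 4.86 for Hey1, 2.96 for Sox17, 4.70 for Clec14a, 4.06 for Bmx and 6.03 for Mecom, all still called. Arterial and Notch genes were higher in EHT in 10 of 11 tested members (median 3.14), among them Hey1, a Notch target, Gja4, a gap junction protein of arteries, Bmx, a kinase of arterial endothelium, and Vegfc, a growth factor of vessels (3.73 ± 0.28). Notch2 did not pass (-0.29 ± 0.22).

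Matrix and contractile genes followed. Of 11 tested members 10 were higher in EHT and 0 lower (median 3.31). Fn1, fibronectin, stood at 164, 158, 169, 253 and 176 CPM in EHT and at 3.65, 3.14, 1.55, 12.7 and 6.75 CPM in EMP (4.92 ± 0.17). Acta2, smooth muscle actin, stood at 38.8 to 114 against 0.185 to 4.37 CPM (5.86 ± 0.31), and Tagln, a partner of actin, at 13.4 to 47.2 against 0 to 1.59 (5.76 ± 0.35). Both depended on the library left out, Acta2 falling to 5.08 without WT 4 and reaching 6.63 without WT 5, and Tagln 4.96 and 6.42. The mesenchymal markers Pdgfra, Dcn, Lum, Col1a1 and Prrx1 together took at most 0.000585% of UMIs in any EHT library, and Dcn and Lum were at 0 in EMP.

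Imprinted growth genes, expressed from 1 parental allele and tied to fetal growth and stem cell quiescence, were higher in EHT in 13 of 13 tested members (median 2.49). Cdkn1c (p57), an inhibitor of the cell cycle, stood at 346, 421, 256, 450 and 279 CPM in EHT and at 2.98, 2.18, 7.22, 12.7 and 9.53 CPM in EMP (5.69 ± 0.20, adjusted p = 1.92e-11). Igf2, the fetal growth factor, stood at 322 ± 88.0 against 16.1 ± 8.73 CPM (4.42 ± 0.12), and H19, the non-coding RNA of the same locus, at 538 ± 76.1 against 26.0 ± 15.6 (4.42 ± 0.21). In single cells H19 had a UMI in 313 of 326 EHT and 140 of 390 EMP cells, and Igf2 in 309 and 101. The list took 0.269% ± 0.0403 of UMIs in EHT, 0.0785% ± 0.0119 in EMP and 1.04% ± 0.0786 in the cells named preHE. Dlk1, a Notch ligand-like protein, stood at 59.3 ± 16.7 against 10.8 ± 6.18 CPM (2.44 ± 0.26).

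The remaining genes with the largest rises were Sfrp2, a secreted Wnt modulator (92.7 ± 21.6 against 1.95 ± 1.13 CPM, 5.71 ± 0.19), Serpinf1, a secreted serpin (92.1 ± 15.2 against 3.14 ± 0.925, 4.96 ± 0.16), and Cd24a, a surface sialoprotein (150 ± 27.5 against 9.06 ± 7.16, 4.11 ± 0.22). Lymphoid priming genes were higher in EHT in 7 of 10 tested members and lower in 0, at low levels. The list took 0.0381% of UMIs in EHT, 0.0154% in EMP and 0.0126% in megakaryocytes. It took more in preHE (0.0764%), aEC (0.0561%) and myeloid cells (0.0445%), so its level was not particular to EHT. Flt3, the receptor of multipotent and lymphoid progenitors, stood at 13.0, 8.51, 18.6, 13.4 and 7.15 CPM in EHT and at 4.31, 4.11, 2.06, 2.40 and 1.19 CPM in EMP (2.02 ± 0.29). Il7r, the interleukin 7 receptor, stood at 8.40 ± 1.90 against 4.18 ± 1.92 CPM with overlapping ranges (1.00 ± 0.24). Gata3 (2.63 ± 0.31), Lck (1.74 ± 0.34) and Sox4 (1.68 ± 0.12), a T lineage factor, a T cell kinase and a progenitor factor, were also higher, whereas Dntt, Pax5 and Cd3e were at 0 in both populations.

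On the EMP side, mast cell and granule genes showed the largest differences. Cpa3 stood at 57.7, 48.9, 148, 85.3 and 58.4 CPM in EMP and at 2.24, 0, 0.808, 1.92 and 1.65 CPM in EHT (-5.64 ± 0.23, adjusted p = 8.05e-11). WT 3 was the highest EMP library, and the populations did not overlap. Hdc, the enzyme that makes histamine, stood at 106, 116, 40.8, 41.9 and 36.9 CPM in EMP and at 0 to 2.75 in EHT (-6.44 ± 0.35, or -5.82 without WT 1 and -7.96 without WT 5). Il1rl1, the interleukin 33 receptor of mast cells, had a log2 fold change of -3.93 ± 0.42 and Srgn, the proteoglycan core of granules, of -1.87 ± 0.07. Of the 5 tested members of the mast cell and basophil list 4 were lower in EHT, and 1, Slc18a2, a vesicular amine transporter named after its value was seen, was higher (0.80 ± 0.14). The mature mast cell proteases Cma1, Mcpt4, Tpsb2 and Tpsab1 were at 0 in both populations.

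Granulocyte and monocyte genes were lower in EHT in 25 of 28 tested members and higher in 2 (median -2.05). Mpo stood at 756, 718, 646, 650 and 514 CPM in EMP and at 89.7, 55.3, 40.4, 41.1 and 69.3 CPM in EHT (-3.47 ± 0.12, adjusted p = 2.32e-11), so EHT kept a measurable level. Plac8, a cysteine-rich protein of myeloid progenitors, stood at 494 ± 82.1 against 12.4 ± 6.04 CPM (-5.37 ± 0.16), Ms4a3, a marker of granulocyte-monocyte progenitors, at 57.2 ± 13.5 against 4.57 ± 1.68 (-3.61 ± 0.18), and Elane, neutrophil elastase, at 10.8 to 29.2 against 0 to 1.35 (-5.26 ± 0.36, or -5.93 without WT 1). Fcgr3 (CD16), the receptor used to sort EMPs, stood at 109 ± 34.5 against 17.8 ± 5.56 CPM (-2.58 ± 0.13). Cebpa, the factor that directs granulocyte and monocyte fate, named after its value was seen, stood at 24.6 ± 4.02 against 2.10 ± 1.61 CPM (-3.44 ± 0.29). The 2 higher members were Lyz2 (0.82 ± 0.14), lysozyme, and Cebpb (0.48 ± 0.09), each higher in 4 of 5 libraries and also named after their values were seen.

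Erythroid genes were lower in EHT in 12 of 14 tested members and higher in 0 (median -1.23). Gata1 stood at 77.2, 77.2, 21.1, 37.5 and 66.7 CPM in EMP and at 2.24, 0.608, 0.808, 3.84 and 2.20 CPM in EHT (-4.66 ± 0.25, adjusted p = 1.67e-09, or -5.29 without WT 4). Cited4 differed by -4.42 ± 0.35 (-5.55 without WT 4), with 0 counts in EHT of 3 libraries. Klf1, the erythroid Krüppel-like factor, passed the filter on low counts in too few sums to be tested, at 46.7, 51.0, 2.06, 28.4 and 36.1 CPM, against 0.449 to 3.30 in EHT. Epor, the erythropoietin receptor, was lower in EHT (-1.78 ± 0.37) with 1 library the other way, WT 3, where EMP held 1 count and EHT 5. EMP of WT 3 was thus low in Gata1, Klf1 and Epor together and high in Cpa3.

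Hemoglobin genes did not follow the erythroid list. Hbb-bh1, an embryonic beta-like globin, was lower in EHT (-2.20 ± 0.25, or -2.90 without WT 4), and Hbb-y, another, was higher (0.70 ± 0.18, with overlapping ranges), a call that was lost without the library block (adjusted p = 0.459). Their levels moved with the library, Hbb-y standing at 104 CPM in EHT and 74.0 in EMP of WT 4 and at 9.70 and 3.61 in WT 3. The 7 hemoglobin genes in the table took 0.00577% to 0.0240% of UMIs in EHT and 0.00286% to 0.0218% in EMP. In aEC, which should lack globin, they took 0.0161% in WT 4 and 0.00283% in WT 3, so globin UMIs in these cells moved with the library as well. Whether they came from free RNA was not measured, and the part of such RNA in these 2 calls was not tested.

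Megakaryocyte genes were split, with 6 higher and 9 lower of 18 tested, against 28.8% and 27.6% of all tested genes. The platelet glycoprotein Gp1bb (-4.00 ± 0.33) and Treml1 (-4.16 ± 0.34), a receptor of platelet granules, were lower in EHT, while Vwf was higher and Pf4, platelet factor 4, was higher in 4 of 5 libraries. Pf4 stood at 41.7, 38.9, 42.8, 35.3 and 44.6 CPM in EHT and at 8.62, 5.56, 9.29, 11.8 and 63.1 in EMP (1.33 ± 0.34). EMP of WT 5 alone lay above EHT, and the value was 2.13 without that library. Of the 290 EMP counts of Pf4 over all libraries, 84 came from 1 cell. Of 6 tested macrophage genes 3 were higher in EHT (Pf4, Apoe and Ctsb) and 2 lower (Cd68 and Csf1r), and the macrophage markers C1qa, C1qb, C1qc, Adgre1, Cx3cr1 and Mrc1 together took 0.000274% to 0.00559% of UMIs in EHT and 0.000798% to 0.00389% in EMP. Csf1r, the macrophage growth factor receptor, lost its call without WT 1 (-0.57, adjusted p = 0.134) and with DESeq2 (adjusted p = 0.138).

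The rest of the genes with the largest falls were Arhgap15, a Rac-regulating protein (43.7 to 69.7 CPM in EMP against 0.808 to 5.50 in EHT, -4.69 ± 0.25, or -5.39 without WT 5), Emilin2, a matrix glycoprotein (57.5 ± 9.07 against 2.92 ± 2.36, -4.21 ± 0.26), Glipr1 (58.0 ± 6.64 against 3.52 ± 1.38, -4.03 ± 0.17), Mt1, a metallothionein (424 ± 80.9 against 32.3 ± 19.2, -3.67 ± 0.20), and Fos, an immediate early factor. Fos moved between libraries, at 169, 187, 133, 60.8 and 33.4 CPM in EMP and 18.4, 9.12, 8.08, 8.83 and 1.65 in EHT, and was lower in EHT within each (-3.54 ± 0.16).

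Several factors at the center of blood emergence did not pass the test. Runx1 stood at 185, 191, 181, 158 and 213 CPM in EHT and at 161, 166, 188, 185 and 177 CPM in EMP (0.08 ± 0.07, adjusted p = 0.406). Spi1 (PU.1), the myeloid and lymphoid factor, stood at 212 ± 21.9 against 203 ± 27.2 CPM (0.08 ± 0.08, adjusted p = 0.455), Tal1, a factor of blood and endothelium, at 57.2 ± 11.7 against 50.1 ± 5.37 (0.20 ± 0.10, adjusted p = 0.113), and Meis1 at 77.8 ± 6.19 against 68.4 ± 6.92 (0.16 ± 0.09, adjusted p = 0.142). These 4 differences missed the threshold, but single libraries decided it. Leaving out WT 4 let Runx1 (0.17, adjusted p = 0.0723) and Meis1 (0.25, adjusted p = 0.0416) pass, and leaving out WT 3 did so for Spi1 (0.17, adjusted p = 0.0833) and Tal1 (0.25, adjusted p = 0.0701). Spi1 also passed in cells thinned to 5000 UMIs (0.29, adjusted p = 0.0490) and Tal1 without doublets (0.24, adjusted p = 0.0503). In each of these fits the size stayed under 0.30 on the log2 scale.

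Of the 20 heptad and core blood factors 7 were higher, 6 lower and 7 not called (median 0.13). These shares lay near the 28.8% higher and 27.6% lower of all tested genes. Erg (1.59 ± 0.17) and Bcl11a (1.17 ± 0.10), an ETS factor and a repressor of fetal globins, were higher with Gfi1. Gata2, the Gata factor of stem cells and mast cells, stood at 52.5, 41.9, 42.0, 40.3 and 46.8 CPM in EHT and at 91.8, 116, 88.2, 103 and 85.4 in EMP (-1.12 ± 0.10), and Myb, which definitive but not primitive blood requires, at 152 ± 24.0 against 195 ± 23.8 (-0.35 ± 0.06, not called in thinned cells, -0.26, adjusted p = 0.148). Thus Gata1 and Gata2 were both lower in EHT, by very different amounts.

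Of 21 tested cytokine receptors 8 were higher and 8 lower in EHT, against 28.8% and 27.6% of all tested genes. Kit, the stem cell factor receptor, stood at 151, 150, 211, 178 and 138 CPM in EHT and at 84.5, 73.8, 101, 87.2 and 85.0 in EMP (0.94 ± 0.07), and Tek (Tie2), the angiopoietin receptor, at 26.9 against 5.02 CPM on average (2.45 ± 0.19). Csf2rb, the shared chain of the interleukin 3 and GM-CSF receptors, stood at 7.31 ± 1.78 against 44.0 ± 15.9 CPM (-2.59 ± 0.21), and Cxcr2, the neutrophil chemokine receptor, was also lower (-2.04 ± 0.32). The other higher members were Flt3, Il7r, Tnfrsf1a, Ifngr1, Ifnar1 and Tgfbr2, and the other lower ones Csf1r, Csf2ra, Csf3r, Epor, Il1rl1 and Il2rg.

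Of 20 tested adhesion and migration genes 12 were higher and 7 lower in EHT, against 28.8% and 27.6% of all tested genes. The junction proteins F11r (2.86 ± 0.23) and Esam were on one side and the leukocyte integrin Itgal (-2.54 ± 0.25) on the other. Of the 9 tested genes of the fetal RNA-binding axis, which keeps the fetal growth program, 4 were higher and 3 lower in EHT (median 0.01). Hmga2 stood at 757, 780, 603, 589 and 812 CPM in EHT and at 232, 222, 304, 258 and 295 in EMP (1.44 ± 0.09), and Igf2bp2, its RNA-binding target, at 109 to 130.1 against 36.1 to 59.3 CPM (1.27 ± 0.08). Lin28b, the regulator above them, stood at 38.3 ± 3.95 against 38.8 ± 6.80 CPM (0.01 ± 0.12, adjusted p = 0.955) and changed sign without WT 1 (-0.09) and without WT 2 (-0.06). Its paralog Lin28a was lower in EHT, at 2.28 against 6.02 CPM on average (-1.41 ± 0.34), and Trim71, a partner in the same pathway, was higher (0.88 ± 0.14).

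Of 19 tested interferon and inflammatory genes 8 were higher and 6 lower, against 28.8% and 27.6% of all tested genes. Ifitm3, a membrane protein of antiviral defence that germ and stem cells also carry, stood at 320, 261, 327, 377 and 324 CPM in EHT and at 36.5, 28.3, 25.8, 33.8 and 21.4 in EMP (3.44 ± 0.09). The chemokine Ccl3 was lower (-3.19 ± 0.31) and Ccl4 higher (2.17 ± 0.60, higher in 4 of 5 libraries, 1.34 without WT 4 and 3.02 without WT 3). Psmb8, an immunoproteasome subunit, was lower (-1.98 ± 0.23).

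Genes of growth and division were lower in EHT of WT, by small amounts, and fewer of the division genes were lower in the knockout, as given below. S phase genes were lower in 19 of 26 and higher in 0 (median -0.28), G2 and M phase genes lower in 19 of 28 and higher in 2 (median -0.30), and nucleolar ribosome biogenesis genes lower in 22 of 27 and higher in 0 (median -0.28). Rrm2, a subunit of the enzyme that makes deoxyribonucleotides, stood at 123 against 248 CPM on average (-1.02 ± 0.10), Cks2, a partner of cyclin-dependent kinases, at 449 against 726 (-0.71 ± 0.07), and Myc, which drives ribosome production, at 60.8 against 109 (-0.85 ± 0.13). The 2 members of the G2 and M list that were higher, Ckap2 (0.42 ± 0.12) and Cenpf (0.23 ± 0.10), were named after their values were seen, and Cenpf lost its call when either WT 3 (0.11, adjusted p = 0.293) or WT 5 (0.17, adjusted p = 0.237) was left out. Nucleolar genes took 1.35% ± 0.0509 of UMIs in EHT, 1.61% ± 0.00863 in EMP and 0.389% ± 0.0539 in preHE. Summed, G2 and M genes took 0.590% of UMIs in EHT and 0.690% in EMP, but more in EHT of WT 3 (0.688% against 0.669%). Depth per cell was also lower in EHT, in 5 of 5 WT and 3 of 3 knockout libraries. In WT cells thinned to 5000 UMIs the S, G2 and M, and nucleolar medians were -0.21, -0.27 and -0.25. The part of depth in these lists was not tested.

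Single cells showed how far each gene reached through the populations. Because EMP cells were deeper, shares were taken after thinning each cell to 5000 UMIs, which left out 1 EHT cell. Hlf then had a UMI in 33.6% ± 8.56 of EHT and 1.03% ± 1.10 of EMP cells per library, against 0.548% ± 0.240 in venous endothelium (vEC), which should lack it, so the EMP share was near background; unthinned, 244 of 326 EHT and 18 of 390 EMP cells had one. Hoxa9 had one in 38.9% ± 2.26 of EHT and 1.16% ± 0.762 of EMP cells, with 6.65% ± 0.574 in vEC and 0.950% ± 1.05 in myeloid cells, so the EMP share was near that of myeloid cells. Mpo had one in 22.0% ± 3.82 of EHT and 70.6% ± 7.44 of EMP cells, with 0.571% ± 0.287 in vEC, and therefore lay above background in both; unthinned, 181 EHT and 342 EMP cells had one. Gata1 had one in 0.924% ± 1.39 of EHT and 21.3% ± 8.23 of EMP cells (10 and 216 cells unthinned), and Cpa3 in 0.645% ± 1.44 and 20.2% ± 6.53. Mecom was found in 25.3% ± 8.38 of EHT, 0.727% ± 1.00 of EMP and 21.6% ± 3.98 of aEC cells. Runx1 was found in 62.1% ± 7.17 of EHT and 52.3% ± 3.76 of EMP cells, and in 0.623% ± 0.219 of vEC.

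**Figure D3:**
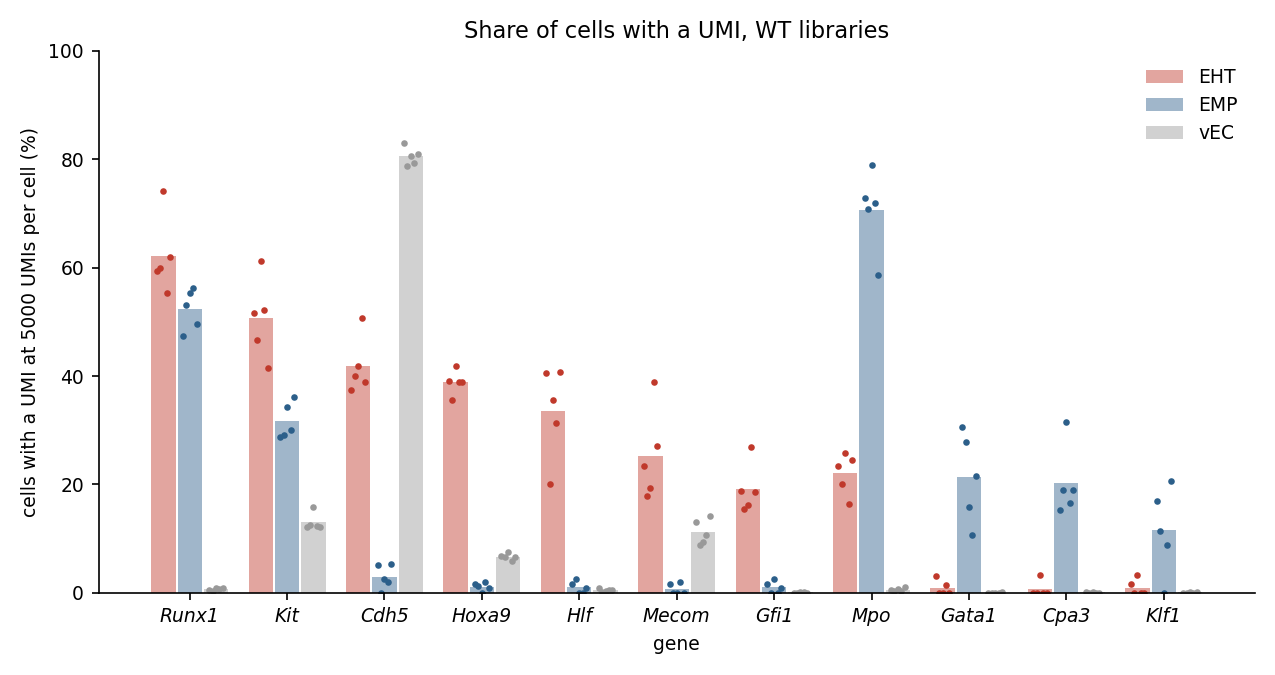
Percent of cells with at least 1 UMI of each gene after thinning every cell to 5000 UMIs, with bars for the mean of 5 WT libraries, points for single libraries, and vEC for comparison. vEC has Hoxa9, Mecom, Kit and Cdh5 RNA of its own. Hlf reaches 33.6% of EHT and 1.03% of EMP cells, and Gata1 0.924% and 21.3%.

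Without thinning, UMIs of several lineage genes were counted in the same cells. Of 390 EMP cells 177 had UMIs of both Gata1 and Mpo, 39 of Gata1 alone, 165 of Mpo alone and 9 of neither, and 159 had both Mpo and Cpa3. Of 326 EHT cells 191 had both Hlf and Cdh5, 53 Hlf alone, 67 Cdh5 alone and 15 neither, and 142 had both Hlf and Mpo. These are counts of joint detection at unequal depth, and whether the genes met more or less often than their own frequencies give was not tested. In EMP 18 cells had a Hlf UMI and 3 of them a Cdh5 UMI as well.

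Some EMP genes rested on few cells. S100a9, an alarmin of neutrophils, had 1237 counts in EMP and 1 in EHT, a ratio of 647 in counts per UMI (95% exact interval 116 to 25570), but 671 of the 1237 came from 1 of 19 cells. Without WT 1 the ratio of S100a9 was 274 (49.0 to 10850), and without WT 5, which held the EHT count, it was at least 177-fold lower in EHT. The granzymes Gzmf (2573 counts in EMP, 1 in EHT), Gzmc (1532 and 1), Gzmd (2413 and 0) and Gzmg (2284 and 0), proteases of killer lymphocytes, were held by 2 to 4 EMP cells, with 94.3% to 98.9% of the counts in a single cell. Set against the limit of 3 counts that a count of 0 allows in EHT as a whole, Gzmd was at least 421-fold and Gzmg at least 398-fold lower in EHT, but these are values of a few cells and not of the population. Without WT 4 the bounds fell to 15.2 for Gzmd and 4.44 for Gzmg. Hp, haptoglobin, was spread more evenly, with 1570 counts in 145 EMP cells against 3 in EHT (ratio 274, interval 93.5 to 1329, or 668 without WT 5). On the other side Igfbp5, a binder of insulin-like growth factors, had 102 counts in EHT and 1 in EMP (ratio 195, interval 34.2 to 7778, or at least 40.2-fold higher without WT 4, which held the EMP count), and Hs3st1, a heparan sulfate sulfotransferase, 116 and 3 (ratio 73.9, interval 24.7 to 364, or 159 without WT 2).

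The antibody tags gave a measure that had no part in naming the cells. They were read in 4 WT libraries, since tag totals were 0 in WT 4, and CD44 in WT 5 alone. The CD117 (Kit) tag averaged 184, 165, 103 and 62.5 counts per EHT cell in WT 1, 2, 3 and 5 and 146, 104, 63.9 and 32.3 per EMP cell, and was higher in EHT in 4 of 4 (mean log2 ratio 0.66 ± 0.25 SD). The CD27 tag, a receptor of the tumor necrosis factor family found on stem cell precursors, averaged 61.2, 56.2, 33.0 and 6.28 in EHT and 47.2, 45.7, 15.2 and 2.13 in EMP (0.84 ± 0.61, 4 of 4). In vEC the CD27 tag averaged 26.5, 28.3, 13.6 and 2.89, so EMP stood at 1.78, 1.61, 1.12 and 0.737 times that level, near or below background in WT 3 and WT 5, where the ratios were largest. The CD45.2 tag, the pan-leukocyte phosphatase, averaged 70.6, 96.5, 53.7 and 8.36 in EHT and 170, 182, 91.8 and 11.2 in EMP (-0.84 ± 0.35, lower in EHT in 4 of 4). In vEC it averaged 59.8, 76.7, 33.9 and 9.32, so the EHT level was 1.18, 1.26, 1.58 and 0.896 times that of endothelium.

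The CD41 (Itga2b) tag, an integrin of early progenitors and megakaryocytes, averaged 137, 111, 48.9 and 36.3 in EHT and 177, 137, 64.5 and 40.7 in EMP (-0.31 ± 0.11, lower in 4 of 4). The CD43 (Spn) tag averaged 511, 533, 353 and 160 in EHT and 584, 656, 320 and 221 in EMP (-0.21 ± 0.26, lower in 3 of 4). On the centred log ratio scale, which relates each tag to the others of the same cell, CD43 was lower in EHT in 4 of 4 WT libraries and in 7 of 7 in all, so the exception in WT 3 depended on the scale. Exact sign-flip permutation tests over 4 libraries gave p = 0.125, two-sided, for each of CD117, CD27, CD41 and CD45.2, the smallest that 4 libraries allow (Benjamini-Hochberg adjusted over 5 tags, 0.156), and p = 0.25 for CD43, so none could pass 0.05. With the 3 Meis1-knockout libraries added, 7 in all, CD117 and CD27 were higher and CD41 and CD45.2 lower in EHT in 7 of 7 (permutation p = 0.0156, the smallest possible, adjusted over 6 tags 0.0234), and CD43 was lower in 6 of 7 (permutation p = 0.0312, adjusted 0.0375). In knockout 1 to 3 the CD27 tag of EMP stood at 0.483, 0.825 and 0.502 times vEC. The CD45.2 tag of EHT stood at 0.626, 0.511 and 0.727 times vEC. The p-values of CD27 and CD45.2 thus rest partly on levels below background. The CD44 tag averaged 201 in EHT and 291 in EMP of WT 5, and over that and the knockout libraries it was lower in EHT in 3 of 4 (permutation p = 0.375). On the centred log ratio scale CD44 was lower in EHT in 1 of 4, WT 5, and higher in the 3 knockout libraries, so no direction is given for it.

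**Figure D4:**
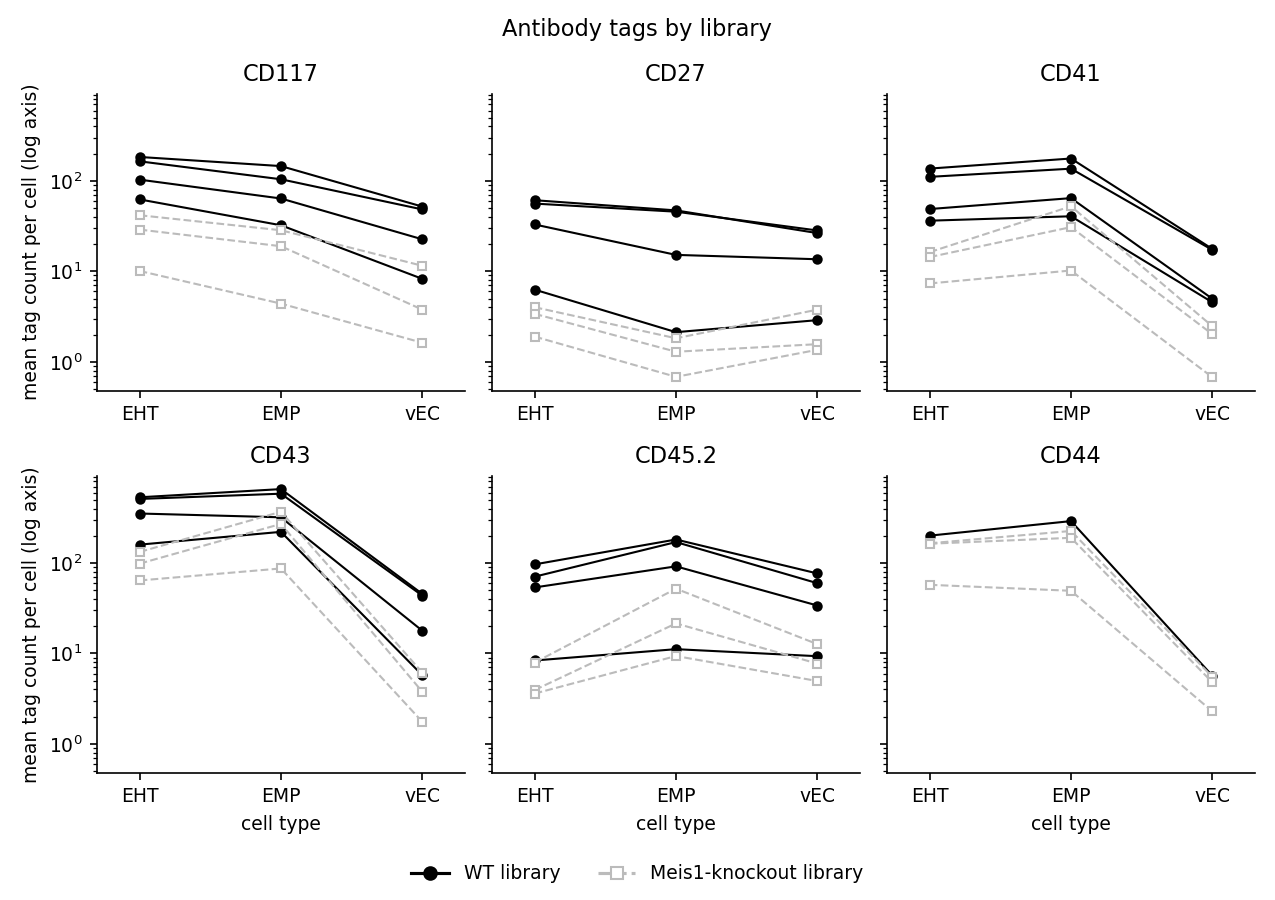
Mean antibody tag count per cell (log axis) in EHT, EMP and, for comparison, vEC, which has Kit RNA of its own. Each library has 1 line, solid for WT and dashed for Meis1-knockout. CD117 and CD27 lines fall from EHT to EMP, CD41 and CD45.2 lines rise, and the CD45.2 level of EHT in WT 5 (8.36) lies below that of vEC (9.32).

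Tag and RNA were set side by side per cell in the same libraries. For CD117 the mean log2 ratio of EHT over EMP was 0.66 in the tag and 0.41 ± 0.25 SD in Kit UMIs per cell, for CD27 0.84 and 2.27 ± 0.32, for CD41 -0.31 and -1.83 ± 0.50, for CD43 -0.21 and -0.97 ± 0.40, and for CD45.2 -0.84 and -0.98 ± 0.84. Tag and RNA thus had the same sign for these 5 antigens. The RNA ratio was the larger in size for CD27, CD41 and CD43, slightly so for CD45.2 with a wide spread, and the smaller for CD117. Tag counts in vEC may hold unbound antibody, but vEC also had Kit RNA in 13.0% of thinned cells and Itga2b RNA in 3.13%. For Ptprc, Spn and Cd27 these vEC shares were 0.141%, 0.055% and 0.387%. The part of unbound antibody in the gap between tag and RNA was not tested. On the CPM scale Ptprc RNA (CD45) missed the threshold (-0.40 ± 0.20, adjusted p = 0.104) but passed without WT 5 (-0.62, adjusted p = 0.0147) and with RLE normalization (-0.42, adjusted p = 0.0886), Spn passed (-0.42 ± 0.14) but not with DESeq2 (adjusted p = 0.112), and Cd44 was higher in EHT (0.30 ± 0.09), also not passing with DESeq2 (adjusted p = 0.115).

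In the 3 Meis1-knockout libraries the same contrast held 162 EHT and 357 EMP cells. Meis1 RNA stood there at 56.7, 67.8 and 55.8 CPM in EHT and at 21.8, 38.6 and 27.1 in EMP, below the 66.8 to 82.0 and 60.4 to 77.2 of WT except in 1 EHT library. These are counts at the 3′ end of the transcript, so they do not check the loss of the floxed exon. Of 8404 genes tested 3176 (37.8%) passed, 1547 (18.4%) higher and 1629 (19.4%) lower in EHT. Of 4777 WT calls tested in both genotypes 57.4% were called in the same direction in the knockout, and of 3120 knockout calls 87.9% were called in the same direction in WT. These libraries hold fewer and shallower cells, with median UMIs of 9277 to 15874 in EHT. S phase genes were lower in knockout EHT in 5 of 26 and higher in 0 (median -0.076). G2 and M phase genes were lower in 6 of 28 and higher in 3 (median -0.081), so both shares lower lay near the 19.4% of all genes. Nucleolar ribosome biogenesis genes were lower in 14 of 27 and higher in 0 (median -0.23).

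**Figure D5:**
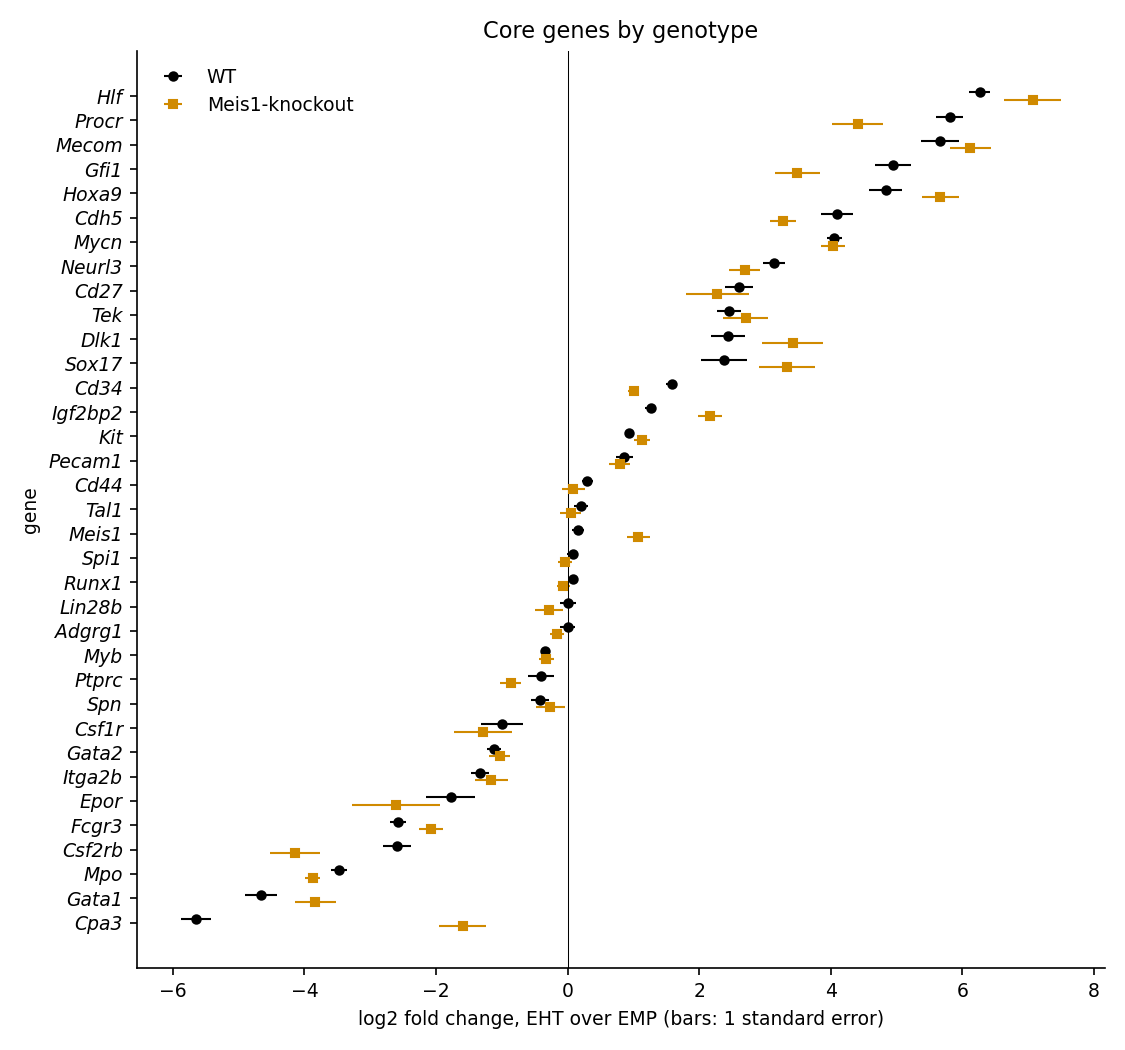
Log2 fold change of EHT over EMP (horizontal axis) with 1 standard error for the core genes tested in both genotypes, black circles for WT and orange squares for Meis1-knockout. Most pairs lie close, with Hlf at 6.26 and 7.07, while Meis1 lies at 0.16 and 1.08.

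Hlf (7.07 ± 0.43), Mecom (6.12 ± 0.31), Hoxa9 (5.67 ± 0.28, or 6.27 without knockout 3), Mycn (4.04 ± 0.18) and Cdh5 (3.28 ± 0.20) were higher in knockout EHT, and Gata1 (-3.83 ± 0.32, or -4.50 without knockout 3), Plac8 (-4.25 ± 0.20, or -5.11) and Mpo (-3.88 ± 0.11) lower. Cpa3 was lower by less (-1.59 ± 0.36 against -5.64 in WT), but the difference between genotypes did not pass (4.02, adjusted p = 0.115). Cpa3 stood at 29.3, 7.97 and 236 CPM in EHT and at 294, 247 and 215 in EMP of knockout 1 to 3, so knockout 3 alone went the other way, and the value was -3.64 without it and -0.88 without knockout 1. The difference between genotypes passed for 36 of 8924 genes (0.403%), 9 with a larger EHT to EMP log2 ratio in the knockout and 27 with a lower one, and 716 had an unadjusted p under 0.05. Meis1 itself was among them, with EMP further below EHT in the knockout (log2 difference 0.92, adjusted p = 0.0742), as were Hmga2 (1.41) and Igf2bp2 (0.90), whose EHT to EMP ratios were larger in the knockout. Cd34 (-0.58), Ifitm3 (-1.25), Apoe (-0.64), Hbb-bh1 (-3.17) and Hba-x (-2.67) had lower ones. Meis2, a paralog of Meis1 named after its value was seen, stood at 18.3 ± 5.12 CPM in WT EHT and 0.214 ± 0.293 in WT EMP (6.03 ± 0.39, or 6.92 without WT 4). In the knockout it differed by 0.91 ± 0.29, by 1.49 without knockout 1, and by 0.77 without knockout 3, which did not pass (adjusted p = 0.141; genotype log2 difference -5.02, adjusted p = 1.81e-04).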

How the data were processed

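Antibody-labelled single cells of 8 libraries were sequenced with 10x 3′ chemistry. The authors aligned reads to mm10 with Cell Ranger 3.0.2 (submitters' processing notes), filtered and clustered the cells, named 10 clusters, and deposited raw UMI counts per gene, tag and cell. Cells were assigned to libraries by barcode and the deposited annotation. Members and gene lists were chosen with earlier results of these data known.

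Counts were summed per library and cell type (at least 10 cells) and tested with edgeR 4.0.16 (TMM, filterByExpr, library block, quasi-likelihood, Benjamini-Hochberg). EHT and EMP of 1 library share a pool of embryos, and their deviations correlated at 0.20 to 0.55. Each library is a separate pool, and p-values measure the spread between 5 pools. In simulated sums, 93.0% of 200 genes changed by 1 on the log2 scale were recovered in WT (9035 genes, 9.27% of calls false), 74.5% in the knockout (8103 genes, 8.59%) and 57.5% for the difference between genotypes (8794 genes, 10.9%). The rate of recovered and false calls with as large a share of genes changed as passed in WT (56.4% of 9252) was not tested. Tags were compared as mean count per cell with exact sign-flip permutation tests. Doublets were called with Scrublet (30 principal components). Named genes were 38 core genes, the 10 largest differences each way among called genes of at least 5 log2 CPM, the same direction in every library and at least 10 counts in each type, up to 4 called and 2 uncalled per list, 5 rare genes each way, and 12 chosen after their values were seen. Alternatives were DESeq2 1.42.0, RLE normalization, no filter, no block, thinning, leaving out doublets, hemoglobin genes or each library, and stricter thresholds. Promoter windows came from RefSeq for 121 of 154 named genes. 1 gene that the naming rule selects is not reported here.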

Additional observations from a re-analysis of the deposited data

Results flagged for a closer look

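In 5 of 156 ranges over the 5 WT libraries, 1 library lay apart from the other 4 by Dixon's criterion, which chance meets in about 1 in 20. The log2 ratio of EHT over EMP was 0.0234 for Pecam1 in WT 3 (0.89 to 1.15 in the others), 2.16 for Epor in WT 3 (-2.54 to -1.48), -2.88 for Arhgap15 in WT 5 (-5.46 to -4.72), -3.32 for Psmb8 in WT 4 (-1.70 to -1.23) and -0.80 for Rfc2 in WT 1 (-0.66 to -0.62).

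The EHT to EMP difference itself differed between genotypes, by the interaction term of the edgeR fit, for 11 of the named genes. In log2 units, knockout minus WT, the values were 0.92 for Meis1, 0.90 for Igf2bp2 and 1.41 for Hmga2 on the higher side. On the lower side they were -0.58 for Cd34, -0.64 for Apoe, -1.25 for Ifitm3, -1.28 for Ifitm2, -3.12 for Ifitm1, -5.02 for Meis2, -3.17 for Hbb-bh1 and -2.67 for Hba-x. Ifitm1 was higher in EHT of WT (1.75) and lower in EHT of the knockout (-1.37). Knockout libraries were shallower per cell than 4 of the 5 WT libraries, and the part of depth in these values was not tested gene by gene; thinned to 5000 UMIs, 35 genes passed, of which 13 were among the 36.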

How the results depend on the processing

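Of 9252 genes tested in WT, 5221 passed, and the count was 4567 to 5140 with each library left out in turn, 4358 without the library block, 5271 with RLE normalization and 5141 without doublets. DESeq2 called 3570. The count fell to 1559 of 4284 genes in cells thinned to 5000 UMIs, where fewer genes and counts remained, to 1560 with Bonferroni adjustment and to 1246 at an absolute log2 fold change of at least 1. In the knockout 3176 genes passed, 2346 to 2856 with each library left out, 2352 without the block and 1343 with DESeq2, and for the difference between genotypes 36 passed and 20 with DESeq2, 19 of them shared; the cause was not tested. With no filter on low counts, 6438 of 17091 genes passed in WT. Depth limited the lists of rare genes, since 24 of 31 Hox, 12 of 17 mast cell, 14 of 20 macrophage and 10 of 20 lymphoid genes were too rare to test. Ratios of rare genes with a library left out were added after seeing the data.

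Without the replicate block, Hbb-y (0.61, adjusted p = 0.459) and Cenpf (0.25, adjusted p = 0.109) lost their calls. With RLE normalization 144 of the named genes kept direction and side of the threshold, and with DESeq2 142. With the Meis1-knockout libraries added, the tag log2 ratios were 0.71 for CD117, 1.05 for CD27, -0.64 for CD41, -0.60 for CD43 and -1.42 for CD45.2. In each knockout library CD27 of EMP and CD45.2 of EHT lay below vEC.

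The named genes that changed sign had not passed the test. Lin28b (0.01) was at -0.00824 with RLE normalization, -0.0348 with no filter, -0.0163 with DESeq2, -0.00302 without doublets and -0.21 in thinned cells, and -0.0944 to 0.0922 with a library left out. Adgrg1 (0.002) was at -0.0161, -0.0437 and -0.0344 with RLE normalization, no filter and DESeq2, and at -0.15 to 0.10 with a library left out. In thinned cells Hmga1 was at 0.23, Nfkbia at 0.28, Tyms at -0.0419, Uhrf1 at 0.20 and Utp20 at 0.19, and without doublets Lsp1 was at -0.0215. With a library left out Hbb-bt ranged from -0.0153 to 0.42, Lsp1 from -0.00430 to 0.37, Nfkbia from -0.29 to 0.0809, Uhrf1 from -0.0927 to 0.0291, Cenpe from -0.11 to 0.0448 and Icam1 from -0.17 to 0.10.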
